A study of Danio rerio with 10 samples.

Results

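The response of zebrafish (Danio rerio) neutrophils to overexpression of the microRNA miR-199 was described from 5 messenger RNA libraries, which are 5 of the 10 libraries in the series. The 5 were taken by their labels as mRNA of sorted neutrophils: 3 libraries of miR-199 neutrophils, replicates 1 to 3, and 2 of vector neutrophils, replicates 1 and 3. The second vector replicate is not analysed here. Both groups were transgenic larvae of the AB background at 3 days post fertilization, which carried either miR-199 or the empty vector control, each with a green fluorescent reporter. Fluorescent cells were isolated by flow sorting, and their RNA was amplified with the SMART-Seq v4 kit, which is meant for low input. The labels name neither the promoter of the transgenes nor the number of larvae or transgenic founders behind a library, so p-values measure the spread between these libraries, which may be partly technical.

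MicroRNAs are short RNAs that guide Argonaute proteins to partly complementary sites, mostly in the 3′ ends of messenger RNAs, and thereby lower the stability or translation of those messages. Both arms of the miR-199 hairpin are used in vertebrates, and mammalian work has tied the family to mesenchymal tissue, hypoxia signalling and growth control. Neutrophils are short-lived phagocytes that crawl on a fast-turning actin network, store antimicrobial proteins in granules, draw much of their energy from glycolysis, and in larval fish are still produced by dividing precursors.

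The count tables listed 15335 genes, and library totals ran from 12339928 to 17024134 counts. A gene was tested if it passed edgeR's low-count filter, which left 8897 genes. It was called if the Benjamini-Hochberg adjusted p of edgeR's quasi-likelihood test was under 0.05. Levels are given as CPM, counts divided by the TMM-scaled library size and put on a scale of 1000000, in the order vector replicates 1 and 3 and then miR-199 replicates 1, 2 and 3. Over all tested genes 19.9% were called, 9.49% higher and 10.4% lower in miR-199 neutrophils. Genes whose mean level reached 50 CPM are here termed well counted; of 3027 such genes 28.3% were called, 340 genes (11.2%) higher and 518 (17.1%) lower. Of the well-counted calls, 117 rises and 166 falls were at least 2-fold.

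The calls rest on both vector libraries. Without vector replicate 1 edgeR called 2 genes, txn and tes, both lower, and without vector replicate 3 it called 0, although 1815 and 1598 genes then had an unadjusted p under 0.05. Each count of calls given below for a gene group therefore falls to 0 without either vector library, except that txn stays called without replicate 1, where 0.0215% of genes were lower. DESeq2 on all 5 libraries called 2673 genes, 15.5% higher and 14.5% lower. The libraries of miR-199 replicates 2 and 3 lay close together on the first principal component of log expression, at 18.56 and 12.78, whereas replicate 1 stood apart at 73.77 and the vector libraries were at -53.64 and -51.47. Replicate 1 was also the miR-199 library farthest from vector in 55.3% of the higher and 55.8% of the lower calls. Without it the direction of each call that could be fitted was the same, in a fit to a part of the same counts. In that fit 1072 genes (12.3%) were higher and 1020 (11.7%) lower. The shares were 4.56% higher and 6% lower without replicate 2, and 12.4% and 12.7% without replicate 3, which are the backgrounds for the counts given below with a library left out. Scaling set the balance of directions. With library totals in place of TMM, the median of all genes shifted by 0.13 on the log2 scale, and 1139 genes (12.8% of those tested) were higher and 674 (7.58%) lower. Rises then made up 62.8% of the calls, against 47.6% with TMM.

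The label neutrophil was checked against marker genes. All 10 neutrophil markers had counts, and they took 8.08% and 8.32% of the vector libraries and 5.72%, 6.11% and 6.69% of the miR-199 libraries. Of 9 macrophage markers 4 were at 0 in every library, mpeg1.1 and the complement genes c1qa, c1qb and c1qc, which allows at most 0.243 CPM at 3 counts. The rest of that list was nearly all the cathepsin gene ctss2.1. The keratinocyte markers summed to 70.9 to 112 CPM, with krt5 and epcam at 0. Erythroid markers, 6 of 9 at 0, summed to 4.61 to 20.2 CPM. Muscle markers stayed between 6.0 and 14.7 CPM, and those of neurons, pigment cells, thrombocytes and lymphoid cells at or under 2.2 CPM. A marker at 0 counts need not be absent. Of genes listed on both a primary sequence and an alternate locus, 62.1% were at 0 in all libraries, against 11.7% on primary sequence only. Whether the markers at 0 are listed in that way was not tested. Markers of mast cells or blood progenitors differed between the groups. They took 0.0291% and 0.0273% of the vector counts against 0.101%, 0.0858% and 0.0566% of the miR-199 counts, through the progenitor transcription factor myb and the stem cell factor receptor kita. The endothelial receptor gene tie1 was also higher. The endothelial marker fli1a, at a mean of 383 CPM, was not called (log2 0.05, edgeR adjusted p 0.855). The endothelial marker cdh5 had at most 7 counts in any library and kdrl at most 34. Lower shares of neutrophil markers and higher levels of the progenitor markers and tie1 go along with many of the changes described below. Their part in those results was not tested. In bulk libraries a lower share of cells of one type and less RNA per cell cannot be told apart.

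Among well-counted genes the largest rise was that of sesn1, which encodes sestrin 1, a stress-induced inhibitor of mTORC1 signalling in mammals. Its level was 29.1 and 23.04 CPM in vector and 488, 587 and 311 CPM in miR-199 neutrophils. All 3 miR-199 libraries stood more than 10 times above both vector libraries. The fitted rise was 17.7-fold (log2 4.14, SE 0.34; edgeR adjusted p 0.00574). The gene lies on the plus strand of chromosome 20 at 32224405 to 32230287 (GRCz11). The receptor tyrosine kinase gene tie1 (chromosome 6, 33981496 to 34008827) rose from 6.42 and 4.83 CPM to 119, 86.8 and 50.8 CPM. Its exons overlap those of tie-1as, an antisense gene listed with 0 counts.

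The immediate early transcription factor gene egr1 had 9.45 and 16.7 CPM in vector and 322, 133 and 67.3 CPM in miR-199 neutrophils, a log2 change of 3.74 (SE 0.75). Its edgeR adjusted p was 0.0233, and 0.0574 when miR-199 replicate 2 was left out. The α-arrestin gene arrdc2 (chromosome 11, 13528436 to 13533782) was at 20.96 and 20.6 CPM against 246, 296 and 119 CPM. Its relatives arrdc3a and arrdc3b also rose, by 1.73 and 2.21 on the log2 scale.

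The kinase gene pdk2b, whose product inhibits pyruvate dehydrogenase in mitochondria, was the most abundant of the 5 largest rises. It had 172 and 189 CPM in vector and 1497, 2282 and 1314 CPM in miR-199 neutrophils, a 9.40-fold rise with an edgeR adjusted p of 0.00596. The gene lies on chromosome 19 at 5674912 to 5687743. The interferon regulatory factor gene irf1b rose from 12.8 and 11.3 CPM to 73.1, 134 and 93.1 CPM. The stress-induced gene gadd45ba was at 41.6 and 64.3 CPM against 476, 407 and 220 CPM. The phosphatase gene dusp2, which shuts off MAP kinases, was at 96.5 and 182 CPM against 1310, 935 and 582 CPM. In each of these genes both vector libraries lay below all miR-199 libraries, which was so for 28.4% of all well-counted genes.

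The co-activator gene cited4a reached the highest level of the 15 largest rises. Its product binds the acetyltransferases CBP and p300. It went from 1020 and 1040 CPM to 4713, 6111 and 3870 CPM, 4.76-fold (log2 2.25, SE 0.23; edgeR adjusted p 0.00659), and its paralog cited4b rose by 1.76 on the log2 scale (SE 0.21). The other genes among the 15 were sc:d217, the sulfhydryl oxidase qsox1, the glycogen primer gyg1a, the annexin anxa2a, the chloride channel protein clic3 and the Krüppel-like factor klf9. Their log2 rises lay between 2.23 and 3.19. For klf9 replicate 1 was far below the others, with 66.3 and 52.7 CPM in vector and 101, 357 and 377 CPM in miR-199 neutrophils. Its edgeR adjusted p of 0.0437 became 0.108 without miR-199 replicate 2 and 0.0797 without replicate 3.

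The largest fall among well-counted genes was that of txn, the gene of cytosolic thioredoxin, a small protein that keeps cysteines of other proteins reduced. It stood at 242 and 249 CPM in vector and at 8.36, 10.2 and 6.27 CPM in miR-199 neutrophils, and fell by 4.89 on the log2 scale (SE 0.22; edgeR adjusted p 0.00162). The table lists it on an alternate locus of chromosome 7. The sulfotransferase gene sult5a1 fell from 173 and 185 CPM to 2.37, 14.0 and 6.64 CPM. The gene of α-catenin, ctnna1 (chromosome 24, 34488316 to 34680954), which ties cadherins to actin, fell from 138 and 135 CPM to 3.23, 9.41 and 9.29 CPM. The fatty acid binding protein gene fabp7a was at 450 and 471 CPM against 45.8, 20.6 and 25.4 CPM.

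Interleukin-1β, a main cytokine of inflamed tissue, was encoded by one of the genes that fell most. The vector libraries held 365 and 883 CPM of il1b, and the miR-199 libraries 51.01, 40.6 and 63.4 CPM. The vector libraries differed from each other by more than the miR-199 libraries did, yet the groups did not overlap. Groups were apart in this direction in 36.3% of all well-counted genes. The fall of il1b was 3.59 on the log2 scale (SE 0.40, edgeR adjusted p 0.00678). The arginase gene arg2 had the same kind of spread, at 420 and 852 CPM against 54.3, 97.8 and 34.1 CPM. The creatine kinase gene ckbb was at 386 and 415 CPM against 18.2, 44.1 and 38.4 CPM.

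The focal adhesion LIM protein gene tes (chromosome 25, 18475029 to 18496410) was the most even of the large falls. It had 235 and 260 CPM in vector and 34.3, 33.0 and 31.1 CPM in miR-199 neutrophils, a log2 change of -2.91 (SE 0.12; edgeR adjusted p 0.00162). The atypical MAP kinase gene mapk6 was at 180 and 141 CPM against 12.8, 15.7 and 23.2 CPM. The annexin A2 partner s100a10b fell from 1440 and 1326 CPM to 297, 41.7 and 89.2 CPM, while anxa2a itself rose from 50.8 and 51.2 CPM to 409, 129 and 187 CPM. Replicate 1 held the highest miR-199 level of both genes. The s100a10b call was lost without miR-199 replicate 2 (edgeR adjusted p 0.0546) or replicate 3 (0.0728). The remaining 5 of the 15 largest falls, prc1b, cst14b.1, ube2c, prdx1 and txndc12, had log2 changes from -3.15 to -2.35.

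**Figure D1:**
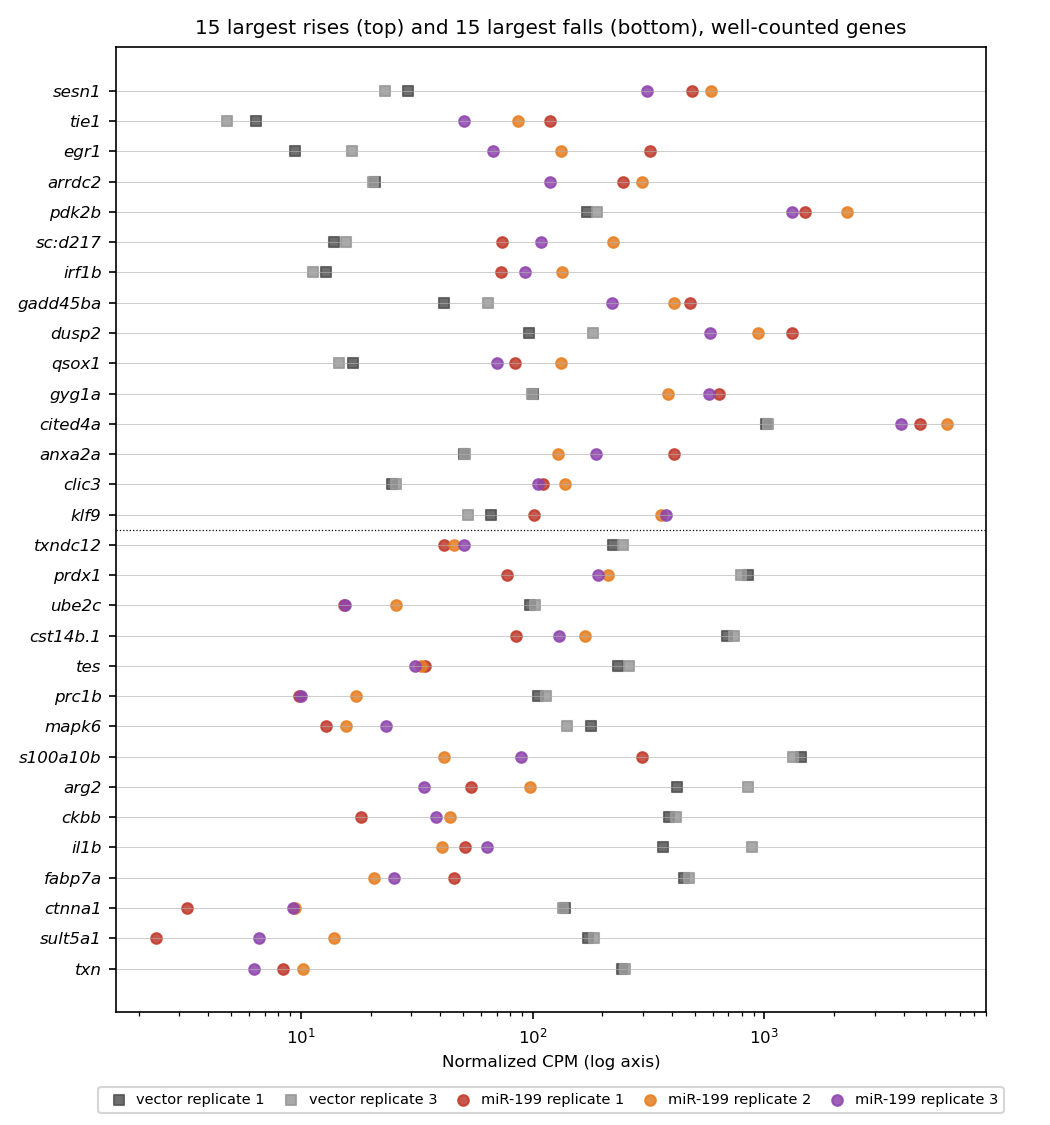
Level of the 15 well-counted genes with the largest rises (upper block) and the 15 with the largest falls (lower block), in TMM-scaled CPM on a log axis; each point is 1 library, squares for the 2 vector and circles for the 3 miR-199 libraries. In every row the squares and circles are separate. The genes were picked as the largest called changes, and the groups did not overlap in 64.8% of all well-counted genes. MiR-199 replicate 1 stands off from replicates 2 and 3 for klf9, anxa2a and s100a10b.

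Gene groups were then described with lists of genes by function. The group with the highest share of falls was mitosis. Of 56 tested mitosis genes 44 were lower and 0 higher, 78.6% against 10.4% of all genes tested, and the median log2 change was -1.93 against 0.02. The 25 well-counted members gave 20 lower. The summed share of the list was 0.547% and 0.539% of the counts in vector and 0.206%, 0.289% and 0.213% in miR-199 neutrophils, so the list held less than 0.6% of any library. The count was 45 without miR-199 replicate 1, 44 without replicate 2 and 35 without replicate 3.

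The falls in mitosis genes were spread over the machinery. Of 18 tested kinesins and midzone or cytokinesis genes 16 fell, among them prc1b (105 and 115 CPM against 9.87, 17.3 and 10.03 CPM), which bundles the microtubules of the spindle midzone. The spindle motor gene kif11 was at 332 and 361 CPM against 48.1, 102 and 57.6 CPM. Centromere, kinetochore and passenger complex genes fell in 12 of 15 cases, with a median of -2.04, and in 7 when miR-199 replicate 3 was left out. One of these was ndc80, which anchors kinetochores to microtubules, at 109 and 121 CPM against 25.8, 29.8 and 22.1 CPM. Mitotic cyclins, kinases and their regulators fell in 9 of 12 cases, and condensin, topoisomerase and chromatin genes in 7 of 10. The topoisomerase gene top2a was at 285 and 287 CPM against 64.6, 117 and 68.2 CPM. The nuclear import gene kpna2 was the most abundant called member, with 348 and 410 CPM against 73.99, 133 and 78.4 CPM.

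The ubiquitin-conjugating enzyme gene ube2c, which works with the anaphase-promoting complex, fell from 97.8 and 103 CPM to 15.3, 25.7 and 15.5 CPM. The phosphatase gene cdc25b, which activates mitotic kinases, did not pass the test at 700 and 786 CPM against 626, 705 and 577 CPM (edgeR adjusted p 0.303). The list has a gap, since the central mitotic kinase gene cdk1 was listed with 0 counts in every library. Both cdk1 and plk1 are listed on a primary chromosome and on an alternate locus. Of 1807 genes listed in that way 62.1% were at 0 counts in all libraries, against 11.7% of the genes listed on primary sequence alone.

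Fewer genes of DNA replication passed the test. Of 59 tested, 5 were lower and 1 higher, 8.47% and 1.69% beside 10.4% and 9.49% of all genes, although 50 of the 59 had a negative log2 change and the median was -0.56. The count depended on replicate 2. Without it 20 replication genes were lower, and the summed share of the list was 0.471% in each vector library. In the miR-199 libraries it was 0.315%, 0.551% and 0.333%. Replicate 2 was thus above vector and the other replicates below it. The replication clamp gene pcna shows the pattern, with 618 and 634 CPM in vector and 342, 581 and 391 CPM in miR-199 neutrophils, and an edgeR adjusted p of 0.170 that became 0.0411 without replicate 2.

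The enzymes of nucleotide supply gave 3 of the 5 falls. The ribonucleotide reductase gene rrm2 was at 144 and 143 CPM against 14.55, 58.9 and 37.5 CPM, and thymidine kinase tk1 at 53.98 and 55.1 CPM against 18.9, 22.8 and 13.6 CPM. Of 19 tested genes of the Mcm helicase and its loading 1 fell, with a median of -0.28. Without miR-199 replicate 2 the falls were 5 of nucleotide supply, 4 of the Mcm group and 5 of 20 polymerase, clamp and clamp loader genes. The polymerase subunit gene pold3 was the 1 rise, from 32.0 and 29.5 CPM to 58.3, 68.7 and 43.2 CPM. The rrm2 call was lost without miR-199 replicate 3 (edgeR adjusted p 0.0890).

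For entry into the cycle, 5 of 25 tested genes were lower and 2 higher. The kinase gene cdk2 was at 66.5 and 68.8 CPM against 26.99, 44.1 and 25.7 CPM; its edgeR adjusted p was 0.0380, and 0.0641 without miR-199 replicate 3. The kinase subunit gene cks1b, whose product binds Cdk1 and Cdk2, fell from 96.6 and 99.8 CPM to 19.5, 32.5 and 25.002 CPM (log2 -1.94, SE 0.23; edgeR adjusted p 0.00748). The repressor gene e2f8 was at 51.7 and 52.7 CPM against 7.70, 13.7 and 9.88 CPM, and the inhibitor gene cdkn2c at 22.4 and 25.7 CPM against 1.91, 4.94 and 2.88 CPM. Cyclin D1, ccnd1, was 1 of the rises, at 8.24 and 12.8 CPM against 33.6, 28.0 and 18.3 CPM. The other was cdk4, from levels under 1 CPM. Leaving out miR-199 replicate 2 gave 1 rise, and leaving out replicate 3 gave 4.

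Histone and high mobility group genes, which encode packing proteins of chromatin, fell in 11 of 24 cases and rose in 0. The list took 1.202% and 1.205% of the vector counts and 0.455%, 0.573% and 0.525% of the miR-199 counts. Its most abundant called member was hmgn2, a nucleosome-binding protein gene, at 4724 and 4830 CPM against 770, 1161 and 1021 CPM (log2 -2.28, SE 0.20; edgeR adjusted p 0.00574). The chromatin protein gene hmgb2a fell from 2255 and 2420 CPM to 698, 916 and 920 CPM, and hmgb2b with it by 1.14 on the log2 scale. The linker histone gene histh1l was at 1024 and 1133 CPM against 451, 497 and 450 CPM. The linker histone gene h1fx, at 775 and 818 CPM against 338, 524 and 655 CPM, did not pass the test (edgeR adjusted p 0.135).

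**Figure D2:**
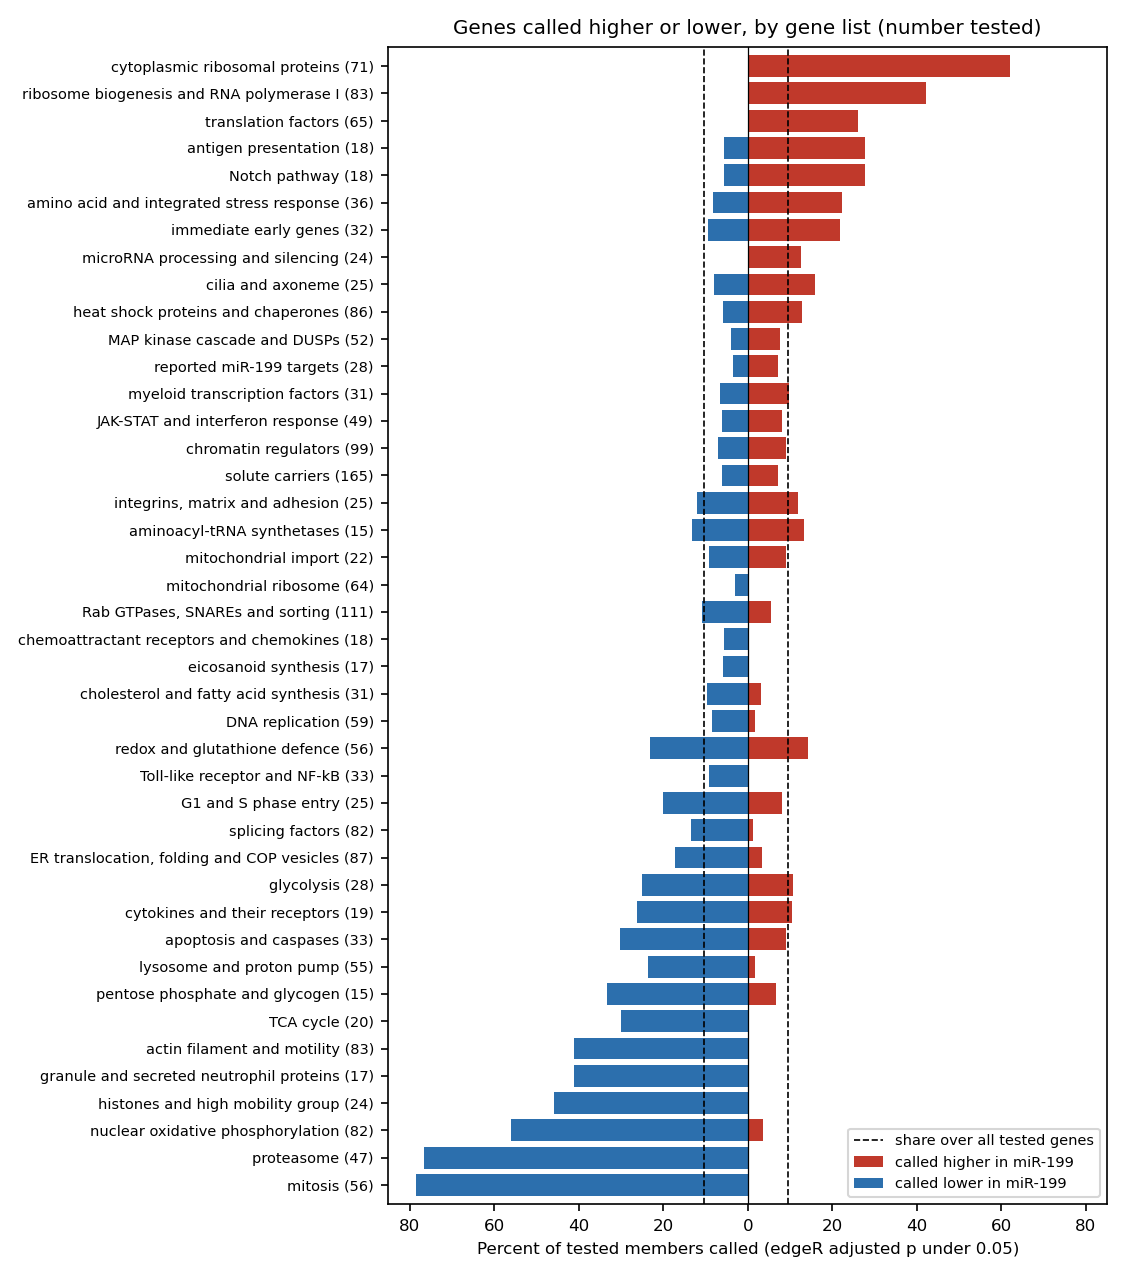
Percent of the tested members of each gene list called higher (red, to the right) or lower (blue, to the left) in miR-199 neutrophils, with the number tested in parentheses; dashed lines mark the shares over all 8897 genes, 9.49% higher and 10.4% lower. Mitosis (78.6%), proteasome (76.6%) and nuclear oxidative phosphorylation (56.1%) lie far out on the lower side, and cytoplasmic ribosomal proteins (62.0%) and ribosome biogenesis (42.2%) on the higher side.

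The proteasome, the barrel-shaped protease that breaks down ubiquitin-marked proteins, was lower in most of its subunits. Of 47 tested genes 36 were lower and 0 higher, and among the 40 well-counted members 34 were lower, where the share over all well-counted genes was 17.1%. The median log2 change was -0.86, and the summed share went from 0.750% and 0.772% of the counts to 0.465%, 0.498% and 0.475%. All 6 tested ATPases of the regulatory 19S cap fell, 14 of 15 other cap subunits and 5 of 8 α subunits of the 20S core. Of the β subunit genes of the core, 8 of 9 listed as constitutive fell. Inducible β subunits replace constitutive ones in the immunoproteasome, and 3 of 4 genes listed as inducible fell. The counts of the proteasome sublists add to more than that of the whole list. Sublists may thus share a gene, and the split of β subunits is approximate. Activators, the inhibitor and assembly factors moved little, with 1 of 6 lower and a median of -0.06. Leaving out miR-199 replicate 2 gave 30 falls.

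Individual proteasome genes changed evenly across the miR-199 libraries. The α subunit gene psma3 was at 457 and 497 CPM against 204, 251 and 216 CPM, a fall of 1.09 on the log2 scale (SE 0.14; edgeR adjusted p 0.00888). The inducible subunit gene psmb8a was at 361 and 359 CPM against 133, 127 and 172 CPM, and psmb7, a constitutive β subunit gene, at 206 and 224 CPM against 91.4, 99.4 and 104 CPM. The steepest fall was that of psma2, from 134 and 134 CPM to 53.8, 49.98 and 43.1 CPM. The activator gene psme2, whose exons overlap those of lsm5, was at 425 and 461 CPM against 272, 293 and 238 CPM. The most abundant member that did not pass the test was psma1, at 340 and 373 CPM against 272, 273 and 279 CPM (edgeR adjusted p 0.0681). The groups did not overlap for psma1 either, and they were apart in this direction in 36.3% of all well-counted genes.

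Nuclear genes of oxidative phosphorylation, the respiratory chain and ATP synthase of mitochondria, were lower in 46 of 82 cases and higher in 3. Their median log2 change was -0.50, and their summed share 1.62% and 1.57% in vector and 1.14%, 1.26% and 1.24% in miR-199 neutrophils. Complex I and its assembly factors fell in 19 of 34 cases, complex III in 7 of 9, complex IV in 9 of 16 and ATP synthase in 10 of 17. When miR-199 replicate 2 was left out these falls numbered 7, 1, 5 and 5. For complex II, which also serves the citric acid cycle, 1 of 6 fell, and 0 without miR-199 replicate 2. Of these 6 genes 5 had a negative log2 change, and the median was -0.30. The 1 positive change was that of sdha (log2 0.54). The summed share of complex II, sdha included, was 0.0795% and 0.0801% in vector and 0.0918%, 0.0979% and 0.0875% in miR-199 neutrophils. The number of falls was 18 without miR-199 replicate 2 and 23 with library totals in place of TMM, which takes 0.13 off each log2 fall. The table lists no gene encoded in mitochondrial DNA.

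The ATP synthase β subunit gene atp5b was at 1507 and 1626 CPM against 847, 1039 and 922 CPM (log2 -0.74, SE 0.14; edgeR adjusted p 0.0203). The proton channel subunit gene atp5g1 fell most, from 542 and 526 CPM to 148, 209 and 184 CPM. The cytochrome c oxidase subunit gene cox6a1 was at 577 and 579 CPM against 258, 270 and 289 CPM. Against this direction cox8b rose from 37.8 and 37.3 CPM to 121, 124 and 140 CPM, while its paralog cox8a fell from 324 and 302 CPM to 192, 210 and 203 CPM. The other rises were cox4i2, from 2.73 and 1.39 CPM to 15.01, 11.2 and 11.06 CPM, and atp5ia, from 14.0 and 13.2 CPM to 35.8, 43.3 and 40.6 CPM. The complex II flavoprotein gene sdha did not pass the test, at 344 and 376 CPM against 589, 540 and 438 CPM (edgeR adjusted p 0.0671).

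Other mitochondrial groups did not share these falls to the same extent. Of 64 mitochondrial ribosome genes 2 were lower and 0 higher, under the background share over all tested genes. Their median of -0.08 becomes 0.06 with library totals, and the falls numbered 4 without miR-199 replicate 1. Both falls were among the 8 well-counted members, whose median was -0.32. The share of falls over all well-counted genes was 17.1%. For oxidative phosphorylation 42 of 65 well-counted members were lower. The part of abundance in this contrast was not tested. Protein import gave 2 lower and 2 higher of 22, 9.09% each and near the background shares, with 1 lower without miR-199 replicate 2 and 1 higher without replicate 3. In the citric acid cycle 6 of 20 fell and 0 rose. Both succinyl-CoA ligase genes were among them, sucla2 at 534 and 565 CPM against 237, 200 and 183 CPM and suclg1 at 422 and 446 CPM against 144, 170 and 184 CPM. The pyruvate dehydrogenase gene pdhb, the enzyme that Pdk2 kinases inhibit, was at 1241 and 1365 CPM against 401, 676 and 877 CPM and did not pass the test (edgeR adjusted p 0.0698). The citric acid cycle falls numbered 3 without miR-199 replicate 2, and 2 rises appeared without replicate 3.

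Glycolysis had 7 lower and 3 higher of 28 tested genes. The enzyme gene gapdhs was at 6066 and 6694 CPM against 2756, 4103 and 3906 CPM, while its relative gapdh rose from 563 and 565 CPM to 1338, 1182 and 1293 CPM (log2 1.17, SE 0.13; edgeR adjusted p 0.00695). The 2 genes thus moved in opposite directions, and the more counted of them fell. Pyruvate kinase, pkma, was at 4553 and 5161 CPM against 3015, 3458 and 3069 CPM. The other rises were pdk2b and pfklb, the latter from under 1 CPM. Leaving out miR-199 replicate 2 gave 1 fall, and leaving out replicate 1 gave 5 rises.

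In the list for the pentose phosphate pathway and glycogen 5 of 15 genes fell and 1 rose. Glycogen phosphorylase pygb, which releases glucose from glycogen, was at 1339 and 1414 CPM against 535, 603 and 365 CPM. Phosphoglucomutase pgm1 was at 630 and 659 CPM against 366, 281 and 308 CPM, and glycogen synthase gys1 at 172 and 180 CPM against 99.8, 76.6 and 104 CPM. The rise was that of glycogenin, gyg1a, the protein on which a glycogen chain is started, from 101 and 99.5 CPM to 635, 384 and 575 CPM. Degradation and elongation enzymes were thus lower and the primer higher. The transketolase gene tktb did not pass the test at 2835 and 3095 CPM against 3005, 2892 and 2374 CPM (edgeR adjusted p 0.665).

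**Figure D3:**
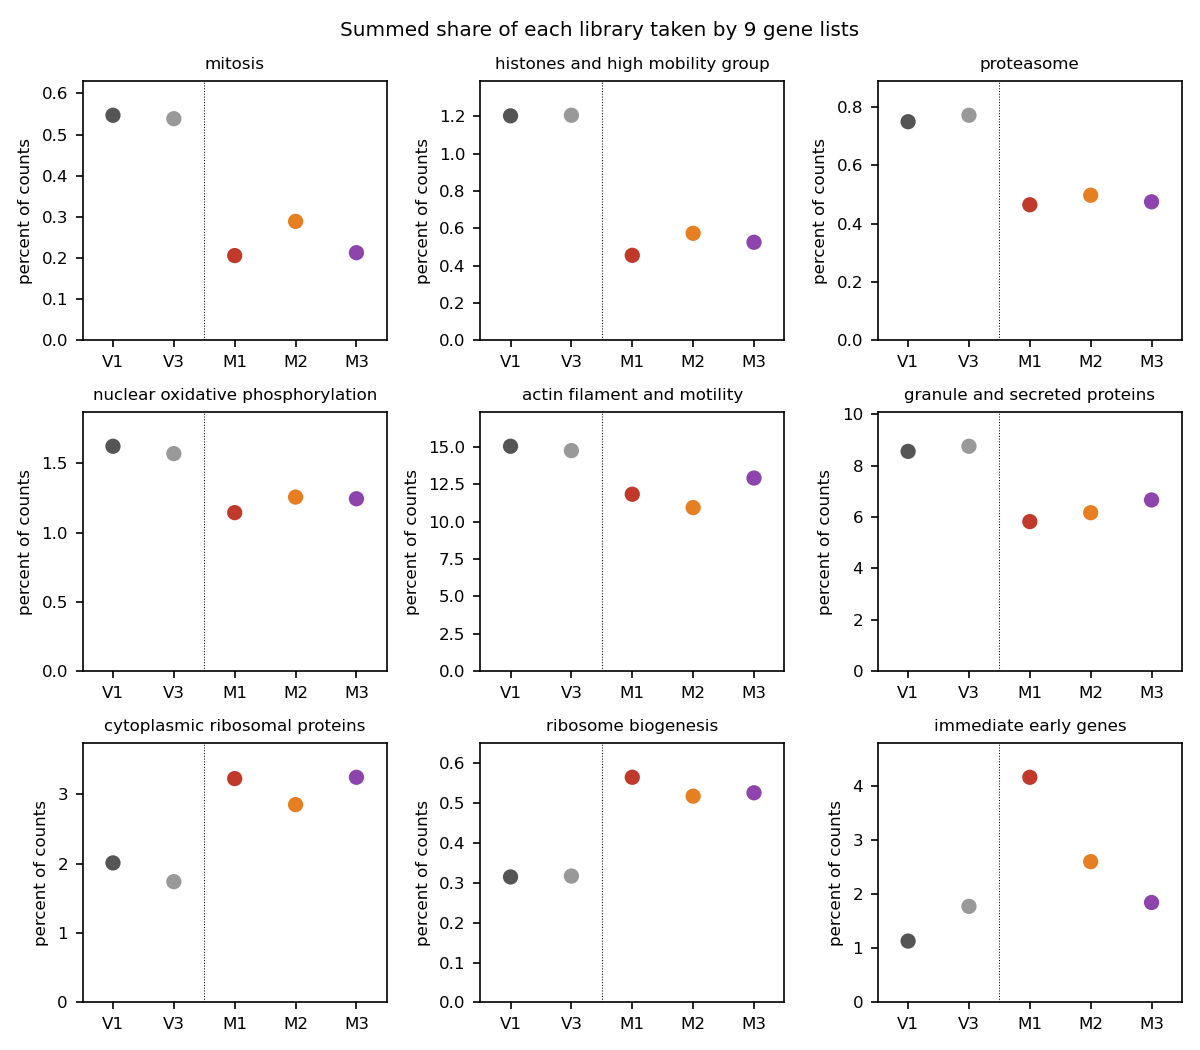
Percent of all counts of a library taken by the members of 9 gene lists, with 1 point per library (V1 and V3, vector replicates 1 and 3; M1 to M3, miR-199 replicates 1 to 3) and axes starting at 0. The miR-199 points lie below both vector points for mitosis, histones, proteasome, oxidative phosphorylation, actin and granule genes, above them for ribosomal proteins and ribosome biogenesis, and for immediate early genes they spread from 1.84% to 4.16%.

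Genes of the actin filament and of cell motility took 15.02% and 14.7% of the vector counts and 11.8%, 10.9% and 12.9% of the miR-199 counts. Of 83 tested genes 34 were lower and 0 higher, and of 60 well-counted members 30 were lower. The median log2 change was -0.43, and 19 falls were left without miR-199 replicate 2. β-actin itself, actb2, the most abundant transcript, was at 63128 and 63004 CPM against 53766, 42762 and 65130 CPM and did not pass the test (edgeR adjusted p 0.475).

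Proteins that bind actin monomers, sever filaments or cap them fell in 12 of 24 cases, and in 7 without miR-199 replicate 2. Profilin, pfn1, which feeds monomers to growing filaments, was at 11493 and 12191 CPM against 3882, 4719 and 4707 CPM, a fall of 1.42 on the log2 scale (SE 0.15; edgeR adjusted p 0.00659). Cofilin, cfl1, which severs filaments, was at 2803 and 2502 CPM against 1154, 1152 and 1041 CPM. Thymosin β4, tmsb4x, which sequesters monomers, was at 7849 and 7711 CPM against 5110, 5627 and 5263 CPM; its call was lost without miR-199 replicate 2 (edgeR adjusted p 0.0686) or replicate 3 (0.0668). The bundling protein plastin, lcp1, fell from 6964 and 8189 CPM to 4298, 4534 and 3883 CPM.

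The Arp2/3 complex, which starts branched filaments at the leading edge, fell in 7 of 11 tested genes, and in 4 without miR-199 replicate 2. The subunit genes arpc5a and arpc5b both fell, by 1.29 and 0.94 on the log2 scale, and arpc1b by 0.53. Factors that switch the complex on, together with formins, fell in 2 of 10 cases, in 1 without that replicate, and had a median of 0.21. Among their 6 well-counted genes 2 fell, and the median was -0.26, beside -0.66 for well-counted genes of the Arp2/3 complex. The GTPase gene rac2, needed for neutrophil motility in zebrafish and mammals, was at 1866 and 2027 CPM against 1052, 1243 and 1232 CPM (edgeR adjusted p 0.0205, and 0.0518 without miR-199 replicate 2). The allograft inflammatory factor relative aif1l fell furthest, from 67.6 and 72.5 CPM to 2.83, 3.69 and 1.99 CPM.

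Granule and secreted proteins of neutrophils had 7 lower and 0 higher genes of 17 tested, and the list fell from 8.55% and 8.75% of the counts to 5.82%, 6.17% and 6.66%. The protease gene adam8a, which sheds surface proteins, was at 4162 and 4591 CPM against 1582, 2756 and 2531 CPM. The secreted phosphoprotein gene scpp8 was the most even of these, at 918 and 1004 CPM against 385, 366 and 435 CPM (log2 -1.28, SE 0.13; edgeR adjusted p 0.00659). Myeloperoxidase, mpx, was at 10998 and 11065 CPM against 7588, 6414 and 4124 CPM and did not pass the test (edgeR adjusted p 0.0637). Falls numbered 2 without miR-199 replicate 2.

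Of 8 NADPH oxidase genes, which make superoxide, cyba and rac2 fell. The membrane subunit gene cyba was at 1011 and 956 CPM against 524, 576 and 601 CPM (log2 -0.79, SE 0.13; edgeR adjusted p 0.0135). Its partner cybb was at 1121 and 1026 CPM against 1983, 2222 and 1343 CPM and did not pass the test (edgeR adjusted p 0.0636). The cytosolic subunit gene ncf1 spanned the vector values, at 4446 and 5024 CPM against 2568, 4341 and 5504 CPM. Without miR-199 replicate 2, 1 fall and 1 rise were called.

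Guidance genes changed little. Among 18 chemoattractant receptor, chemokine and G protein genes 1 fell, 5.56% beside 10.4% of all genes. This was the G protein subunit gene gnai2a, from 1092 and 1235 CPM to 756, 820 and 774 CPM (edgeR adjusted p 0.0303). The retention receptor gene cxcr4b was at 7400 and 8582 CPM against 9990, 8761 and 9201 CPM (edgeR adjusted p 0.328). The receptor and G protein falls numbered 0 to 3 with a miR-199 replicate left out. Of 17 genes of eicosanoid synthesis 1 fell (5.88%), ptges3b, and 1 or 2 did with a replicate left out. Toll-like receptor and NF-κB genes gave 3 lower and 0 higher of 33, with the 3 falls (9.09%) under the background share. Leaving out miR-199 replicates 1, 2 and 3 in turn gave 1, 0 and 5 falls. The inhibitor gene nfkbiaa was among the 3, at 340 and 447 CPM against 188, 112 and 104 CPM. Its copy nfkbiab, with a mean of 2132 CPM against 238 CPM for nfkbiaa, did not pass the test (log2 0.58; edgeR adjusted p 0.288).

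Cytokines and their receptors had 5 lower and 2 higher of 19. Beside il1b, the receptor gene tnfrsf1a fell from 340 and 338 CPM to 240, 228 and 217 CPM, and il13ra1, csf2rb and csf3b fell from levels of 2.67 to 10.8 CPM. The interferon-γ receptor gene ifngr1 rose from 40.3 and 26.99 CPM to 94.4, 76.2 and 81.4 CPM, and the shared cytokine receptor chain il2rga from 92.6 and 71.4 CPM to 126, 131 and 173 CPM. The interleukin-6 receptor gene il6r did not pass the test at 2139 and 2182 CPM against 2768, 3627 and 2732 CPM (edgeR adjusted p 0.0955). With miR-199 replicate 2 left out, 3 fell and 1 rose.

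Myeloid transcription factors gave 3 higher and 2 lower of 31, 9.68% and 6.45%, and single members moved far. The gene spi1a, 1 of 2 fish copies of the myeloid regulator PU.1, fell from 1353 and 1537 CPM to 170, 332 and 385 CPM (log2 -2.29, SE 0.33; edgeR adjusted p 0.0117). The other copy, spi1b, was at 1742 and 1955 CPM against 2663, 2542 and 2241 CPM (edgeR adjusted p 0.0886). The granulocyte factor gene cebp1 fell from 1061 and 1152 CPM to 626, 699 and 791 CPM. The progenitor factor myb rose from 260 and 268 CPM to 873, 715 and 463 CPM, and its edgeR adjusted p of 0.0233 became 0.0667 without miR-199 replicate 2. The Myc relative mych rose from 79.6 and 79.9 CPM to 282, 507 and 211 CPM. Leaving out miR-199 replicate 2 gave 1 rise and 1 fall, and leaving out replicate 1 or replicate 3 gave 5 rises each.

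The widest set of rises was in genes of protein synthesis. Of 71 tested cytoplasmic ribosomal protein genes 44 were higher and 0 lower, 62.0% against 9.49% of all genes, and in 67 of the 71 every miR-199 library lay above both vector libraries, which was so for 28.9% of all tested genes. The median log2 change was 0.57. The summed share went from 2.01% and 1.74% of the counts to 3.23%, 2.85% and 3.24%. Large subunit genes rose in 26 of 41 cases and small subunit genes in 18 of 30. The rises numbered 25 without miR-199 replicate 2, 14 in the large and 11 in the small subunit, and 57 with library totals in place of TMM.

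The 44 called rises of ribosomal protein genes lay between 0.48 and 1.47 on the log2 scale. The small subunit gene rps2 was at 1469 and 1431 CPM against 2613, 2145 and 2689 CPM (log2 0.78, SE 0.15; edgeR adjusted p 0.0229). The large subunit gene rpl3 was at 1268 and 1274 CPM against 1906, 1851 and 2039 CPM. The largest rises were those of rps27.2, from 40.5 and 31.3 CPM to 85.4, 74.6 and 138 CPM, and of rps26, from 93.3 and 78.8 CPM to 240, 209 and 202 CPM. The gene rpl19 did not pass the test at 1054 and 968 CPM against 1503, 1249 and 1438 CPM (edgeR adjusted p 0.0676). Ribosomal protein genes can have near-identical copies, and how the counting treated reads with several placements is not given in the sources used here.

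The nucleolar factors that build ribosomes rose in 35 of 83 cases and fell in 0, and their median log2 change was 0.58. Of 24 well-counted members 16 rose. Their summed share was 0.315% and 0.317% in vector and 0.565%, 0.517% and 0.526% in miR-199 neutrophils. Nucleolin, ncl, was at 500 and 533 CPM against 799, 689 and 799 CPM, and nop56, part of the particle that methylates ribosomal RNA, at 135 and 151 CPM against 281, 269 and 270 CPM (log2 0.93, SE 0.12; edgeR adjusted p 0.00924). Nucleophosmin, npm1a, was at 116 and 130 CPM against 209, 204 and 201 CPM. The largest rise was nop53, a factor of large subunit maturation, from 37.4 and 34.6 CPM to 132, 79.2 and 122 CPM. Fibrillarin, fbl, was at 95.0 and 99.7 CPM against 125, 152 and 118 CPM and did not pass the test (edgeR adjusted p 0.0883). With miR-199 replicate 2 left out, 16 genes were called.

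Translation factors rose in 17 of 65 cases and fell in 0. Elongation factors gave 4 of 10, initiation factors 12 of 52. The poly(A)-binding protein gene pabpc1a was at 1140 and 1228 CPM against 2290, 1996 and 1986 CPM (log2 0.82, SE 0.14; edgeR adjusted p 0.0164). The abundant elongation factor gene eef1a1l1 did not pass the test at 3389 and 3415 CPM against 3823, 4012 and 4479 CPM (edgeR adjusted p 0.210). Genes of 4E-BP proteins, which hold back cap-dependent translation when mTORC1 is off, rose as well. Among them eif4ebp3l went from 102 and 108 CPM to 290, 361 and 377 CPM, eif4ebp1 rose by 0.93 and eif4ebp3 by 2.00 on the log2 scale. The largest rise in the initiation factor list, 2.00, has the value of eif4ebp3. The 12 rises of initiation factors and the 17 of translation factors therefore appear to include genes of these inhibitors. Rises were thus found both for elongation factors and for these inhibitors. Aminoacyl-tRNA synthetases gave 2 higher and 2 lower of 15, 13.3% each beside 9.49% and 10.4% of all genes, and 0 of either without miR-199 replicate 2.

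**Figure D4:**
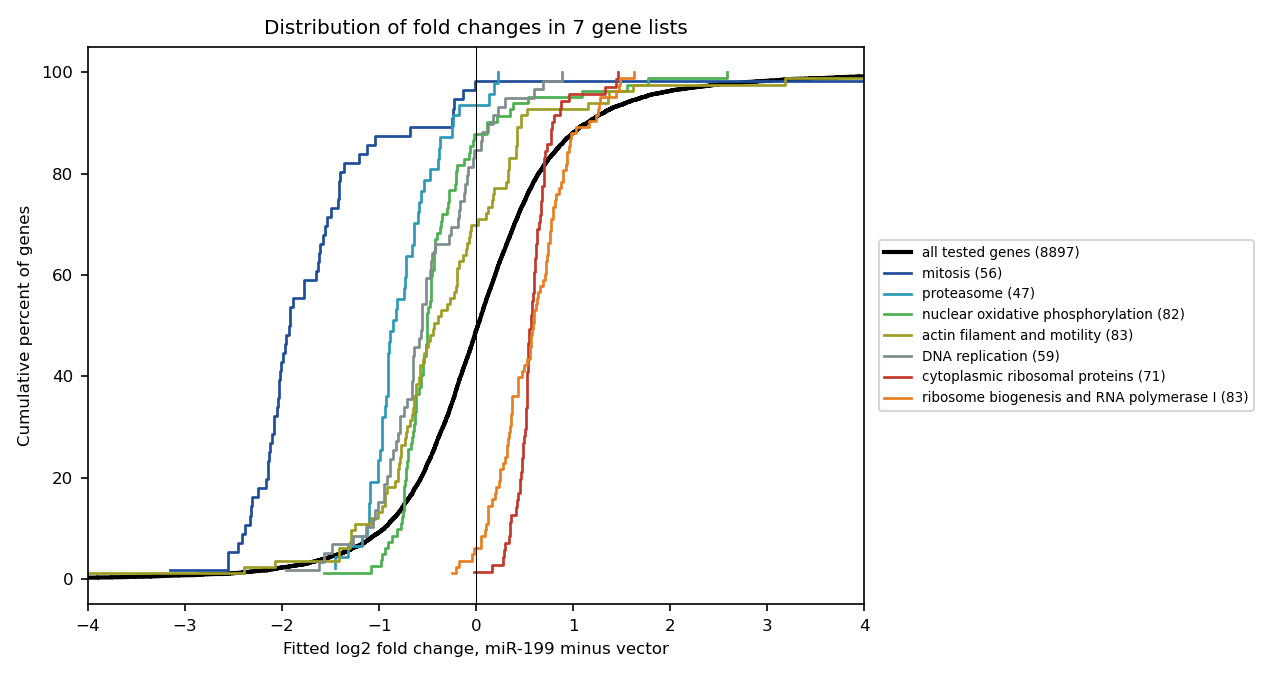
Cumulative percent of genes against the fitted log2 change (miR-199 minus vector), for all 8897 tested genes in black and 7 gene lists in colour, with the number tested in parentheses. The mitosis curve (median -1.93) lies far to the left, those of the proteasome (-0.86), DNA replication (-0.56) and oxidative phosphorylation (-0.50) lie left of the black line, and those of ribosomal proteins (0.57) and ribosome biogenesis (0.58) rise steeply to its right.

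Immediate early genes, which cells switch on within minutes of a stimulus, rose in 7 of 32 cases and fell in 3. These are 21.9% and 9.38%, beside 9.49% and 10.4% of all genes. Their summed share was 1.13% and 1.77% of the counts in vector and 4.16%, 2.60% and 1.84% in miR-199 neutrophils, so replicate 3 lay close to vector replicate 3. The response gene ier2a was at 603 and 994 CPM against 3483, 2352 and 1873 CPM (log2 1.69, SE 0.34; edgeR adjusted p 0.0246), and the growth arrest gene btg2 at 155 and 279 CPM against 1303, 807 and 418 CPM. Both calls were lost without miR-199 replicate 2, with adjusted p of 0.0612 and 0.103. The phosphatase gene dusp1 overlapped between the groups, at 2625 and 5776 CPM against 13873, 7581 and 4347 CPM.

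The falls in this list were atf3, dusp5 and nfkbiaa. The stress factor gene atf3 was at 829 and 1033 CPM against 293, 310 and 400 CPM (log2 -1.48, SE 0.19; edgeR adjusted p 0.00862), and dusp5 at 22.2 and 31.01 CPM against 6.58, 5.10 and 7.30 CPM. Some stress-induced genes of the list thus rose and others fell, though the share of falls was under that of all genes. Leaving out replicate 1 gave 10 rises and 5 falls, and leaving out replicate 2 gave 3 rises. MAP kinases and their phosphatases gave 4 higher and 2 lower of 52, 7.69% and 3.85% beside 9.49% and 10.4% of all genes. Among the rises, dusp6 went from 124 and 125 CPM to 268, 269 and 169 CPM. Those 4 and 2 became 1 and 2 without replicate 2, 5 and 5 without replicate 1, and 10 and 6 without replicate 3.

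Genes of amino acid metabolism and the integrated stress response rose in 8 of 36 cases and fell in 3. The glutathione-degrading enzyme gene chac1 was at 442 and 557 CPM against 1054, 1219 and 1122 CPM (log2 1.18, SE 0.16; edgeR adjusted p 0.0100). Asparagine synthetase, asns, a standard target of that response, was at 308 and 283 CPM against 213, 220 and 221 CPM, a fall of 0.44 on the log2 scale. The pseudokinase gene trib3 did not pass the test at 211 and 433 CPM against 1197, 713 and 434 CPM (edgeR adjusted p 0.118). The other rises were cth, shmt2, sesn1, the 4E-BP genes and the mTORC1 inhibitor ddit4. Rises numbered 5 without miR-199 replicate 2, and falls numbered 5 without replicate 3.

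Redox and glutathione genes moved in both directions, with 13 lower and 8 higher of 56. Beside txn, the peroxiredoxin gene prdx1 fell from 852 and 796 CPM to 77.4, 212 and 192 CPM, and glutathione reductase, gsr, from 717 and 748 CPM to 306, 294 and 250 CPM (log2 -1.37, SE 0.14; edgeR adjusted p 0.00659). The thioredoxin inhibitor gene txnipa rose from 1325 and 1283 CPM to 2168, 2580 and 2800 CPM. The methionine sulfoxide reductase gene msra rose from 44.3 and 48.0 CPM to 143, 122 and 183 CPM. Peroxiredoxin 5, prdx5, did not pass the test at 716 and 741 CPM against 832, 746 and 860 CPM (edgeR adjusted p 0.416). With miR-199 replicate 2 left out, 5 rose.

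Genes of apoptosis and caspases gave 10 lower and 3 higher of 33. These are 30.3% and 9.09%, beside 10.4% and 9.49% of all genes, so the share of rises was near the background. The initiator caspase gene casp9 was at 130 and 148 CPM against 63.1, 65.3 and 87.5 CPM. The caspase gene casp8 was at 122 and 127 CPM against 84.5, 77.7 and 97.7 CPM; its edgeR adjusted p was 0.0483, and 0.0988 without miR-199 replicate 2. Both Bax copies, baxa and baxb, fell by 1.196 and 1.254 on the log2 scale, and apaf1, whose product activates casp9, by 0.59. The survival genes bcl2a and cflara were among the rises, the latter from 28.0 and 27.6 CPM to 67.0, 74.2 and 69.5 CPM. The fall of birc2, an inhibitor of apoptosis, went the other way. Falls numbered 4 without miR-199 replicate 2; without replicate 1, 7 rose, and without replicate 3, 5 rose.

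Antigen presentation rose in 5 of 18 cases and fell in 1. The β2-microglobulin relative b2ml was at 763 and 768 CPM against 1240, 1349 and 1365 CPM (log2 0.78, SE 0.13; edgeR adjusted p 0.0140), and the class I gene mhc1zba at 521 and 595 CPM against 1232, 901 and 1130 CPM. The exons of mhc1zba overlap those of mhc1zha, and class I genes are near-identical in part, so reads may be split between them. The peptide transporter gene tap2a fell from 64.9 and 69.4 CPM to 27.3, 35.1 and 35.9 CPM. Both psmb8a, described above, and tap2a feed peptides to class I molecules and were lower while the class I genes were higher.

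Interferon and JAK-STAT genes gave 4 higher and 3 lower of 49, 8.16% and 6.12%. The rises irf1b and isg15 stood beside falls of irf7, mxa and ddx58. The regulator gene irf7 was at 128 and 150 CPM against 45.9, 36.7 and 64.3 CPM (edgeR adjusted p 0.0142). The feedback inhibitor gene socs3a did not pass the test at 877 and 1300 CPM against 4383, 2099 and 1851 CPM (edgeR adjusted p 0.0721). There were 8 rises and 5 falls without miR-199 replicate 1, and 7 and 6 without replicate 3; 2 falls were left without replicate 2.

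Notch pathway genes rose in 5 of 18 cases and fell in 1. The ligand gene jag1b was at 36.05 and 28.0 CPM against 98.2, 139 and 119 CPM. The receptor gene notch1a went from 23.1 and 22.5 CPM to 60.0, 53.8 and 52.6 CPM (log2 1.28, SE 0.15; edgeR adjusted p 0.00785). The ubiquitin ligase gene mib1, needed for ligand activity, the protease gene adam10b, which cleaves the receptor, and the transcription factor hes6 were the other rises. The copy adam10b had a mean of 10.1 CPM. The far more abundant copy adam10a, at a mean of 631 CPM, did not pass the test (log2 -0.24; edgeR adjusted p 0.334). The fringe gene mfng, which modifies the receptor's sugars, fell from 17.6 and 20.6 CPM to 2.96, 2.67 and 1.03 CPM. The median over the list was 0.07, and 4 rises were left without miR-199 replicate 2.

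In the secretory pathway 15 of 87 genes fell and 3 rose. The calcium-binding chaperone gene calr was at 126 and 141 CPM against 47.5, 50.9 and 23.3 CPM, and ddost, a subunit of the enzyme that adds sugars to proteins, at 645 and 692 CPM against 377, 428 and 313 CPM. The stress factor gene xbp1 did not pass the test, at 3331 and 4047 CPM against 3976, 3343 and 3246 CPM (edgeR adjusted p 0.798). The list's median of -0.14 becomes 0 to 2 decimals with library totals. There were 9 falls without miR-199 replicate 2, and rises numbered 5 without replicate 1 and 6 without replicate 3.

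Lysosome and proton pump genes gave 13 lower and 1 higher of 55. The granulin gene grn1 fell from 107 and 107 CPM to 5.003, 4.55 and 2.07 CPM (log2 -4.78, SE 0.36; edgeR adjusted p 0.00570). Among proton pump genes 6 of 14 fell, and of 13 cathepsins 2 fell, ctss1 and ctss2.1, and 0 without miR-199 replicate 2. The gene ctss1 was at 1072 and 1138 CPM against 548, 493 and 691 CPM. The list had 5 falls without miR-199 replicate 2. Rab GTPases, SNAREs and sorting genes gave 12 lower and 6 higher of 111, 10.8% and 5.41%, and 5 and 1 were left without miR-199 replicate 2. The granule fusion SNARE gene vamp8 was among the falls, at 704 and 759 CPM against 196, 349 and 226 CPM.

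The counts of the remaining lists are set beside 9.49% higher and 10.4% lower over all genes. Solute carriers gave 12 higher and 10 lower of 165, chromatin regulators 9 and 7 of 99, splicing factors 1 and 11 of 82 (1.22% and 13.4%), and integrins and matrix genes 3 and 3 of 25. Heat shock proteins and chaperones gave 11 higher and 5 lower of 86. Metalloproteinases and their inhibitors gave 1 and 2 of 14, galectins 0 and 1 of 7, genes of cilia 4 and 2 of 25, and genes of cholesterol and fatty acid synthesis 1 and 3 of 31. The medians of solute carriers, splicing factors and Rab genes change sign with library totals. Without miR-199 replicate 2 the higher and lower counts were 3 and 2 for solute carriers, 6 and 3 for chromatin regulators, 0 and 4 for splicing factors, 1 and 2 for integrins, 6 and 1 for chaperones, 1 and 0 for metalloproteinases, 0 and 2 for galectins, 0 and 2 for cilia and 1 and 1 for lipid synthesis. Without replicate 1 rises numbered 3 for metalloproteinases and 5 for integrins. Without replicate 3 the counts were 20 and 6 for chaperones, 14 and 10 for chromatin regulators and 16 and 16 for solute carriers.

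Within these lists a few abundant genes did change. The cytosolic chaperone gene hsp90ab1 was at 1718 and 1791 CPM against 2918, 2807 and 3071 CPM (log2 0.74, SE 0.13; edgeR adjusted p 0.0167). Its partner chaperone hspa8 fell by 0.44 on the log2 scale. The Polycomb gene cbx7a rose from 393 and 452 CPM to 1184, 916 and 876 CPM. The remodelling ATPase smarca4a fell from 357 and 364 CPM to 116, 155 and 199 CPM, while its paralog smarca2 rose from 122 and 114 CPM to 255, 227 and 204 CPM. The 2 alternative motors of the same remodelling complex thus moved in opposite directions. The phosphate transporter gene slc20a1b fell from 692 and 696 CPM to 245, 275 and 415 CPM.

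The mRNA libraries were made to look for targets of miR-199. Of 28 tested genes reported as targets in other species or in zebrafish, 1 was lower, cdk2, and 2 were higher, jag1b and smarca2. Those counts are 3.57% and 7.14%, under the background of 10.4% and 9.49%, and the median log2 change was 0.01. The list's most abundant member, the hypoxia factor gene hif1ab, was at 1946 and 2102 CPM against 1773, 1799 and 1547 CPM (edgeR adjusted p 0.242). Without miR-199 replicate 1, 3 were higher and 2 lower. Matches of messenger 3′ ends to the miR-199 seed are not analysed here, so direct and indirect changes cannot be told apart. Of 24 genes of the microRNA machinery 3 rose, the deadenylase subunit genes cnot2 and cnot6b and the decapping gene edc3, and 0 fell; rises numbered 1 without miR-199 replicate 2 and 6 without replicate 3. The Argonaute gene ago2 did not pass the test at 14.4 and 7.39 CPM against 4.15, 9.02 and 14.0 CPM (edgeR adjusted p 0.751).

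Zebrafish keep many duplicated genes, named with a final a and b. Of 642 symbol pairs of this form with both members tested, both were called in 50, 1 in 175 and neither in 417. The pairs were matched by symbol alone, so some are not duplicates. Letters mark older family members for aurka and aurkb, and different subunits for cyba and cybb. Different genes such as piga and pigb, both lower, are counted among the 50. In 39 of the 50 both went the same way, 15 higher and 24 lower, and in 11 they went apart. Peroxidase copies that protect membrane lipids were one of the 11, with gpx4b falling from 302 and 292 CPM to 97.5, 94.0 and 104 CPM and gpx4a rising from 8.48 and 6.44 CPM to 48.9, 21.03 and 32.2 CPM. The sulfate-activating enzyme genes papss2a and papss2b were another. The copy papss2b rose from 682 and 742 CPM to 2721, 1591 and 1846 CPM, and papss2a fell by 1.66 on the log2 scale. These pairs were chosen after their values were seen.

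The share of calls depended on abundance and length. It was 3.74% under a mean of 1 CPM, 19.7% from 10 to 50 CPM and 39.4% from 500 CPM upward, so lists of abundant genes have more room for calls. By summed exon length, 334 of the 2226 genes of up to 1372 bases were lower, and 6.26% of those over 2758 bases, while 8.49% and 12.3% were higher. The median length was 1932 bases over all tested genes, 727.5 for oxidative phosphorylation, 1241 for the proteasome, 2196.5 for mitosis and 561 for ribosomal proteins. Length moves with the falls of the first and second of these lists, and its part in them was not tested. The ribosomal proteins, which rose, were the shortest.

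Some genes set miR-199 replicate 1 apart from replicates 2 and 3; they were chosen for that difference after values were seen, so it is a description. The glucocorticoid-induced co-chaperone gene fkbp5 was at 1733 and 1772 CPM in vector and 265, 3471 and 3209 CPM in miR-199 neutrophils. Replicate 1 was thus below vector and the others above it. The gene hif1al had the same order, at 736 and 802 CPM against 173, 1494 and 1832 CPM, while the mitochondrial carrier gene ucp2 was at 1126 and 1294 CPM against 221, 918 and 1677 CPM. The lectin receptor gene cd22 had 2.501 CPM in replicate 1 against 140 and 209 CPM in replicates 2 and 3.

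In the other direction replicate 1 was high for genes of the AP-1 family. The gene junbb was at 124 and 255 CPM in vector and 583, 175 and 129 CPM in miR-199 neutrophils, jdp2b at 33.6 and 120 CPM against 686, 97.8 and 105 CPM, and jun at 71.7 and 209 CPM against 162, 17.6 and 23.5 CPM. The vector libraries also differed from each other in these genes, with replicate 3 the higher in all 3. For fkbp5 the log2 change of 0.40 (SE 0.91; edgeR adjusted p 0.782) became 0.95 with an adjusted p of 0.00476 when replicate 1 was left out. For the amino acid transporter gene slc7a3, at 2438 and 2225 CPM against 2299, 7340 and 5585 CPM, the adjusted p of 0.137 became 0.00324.

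**Figure D5:**
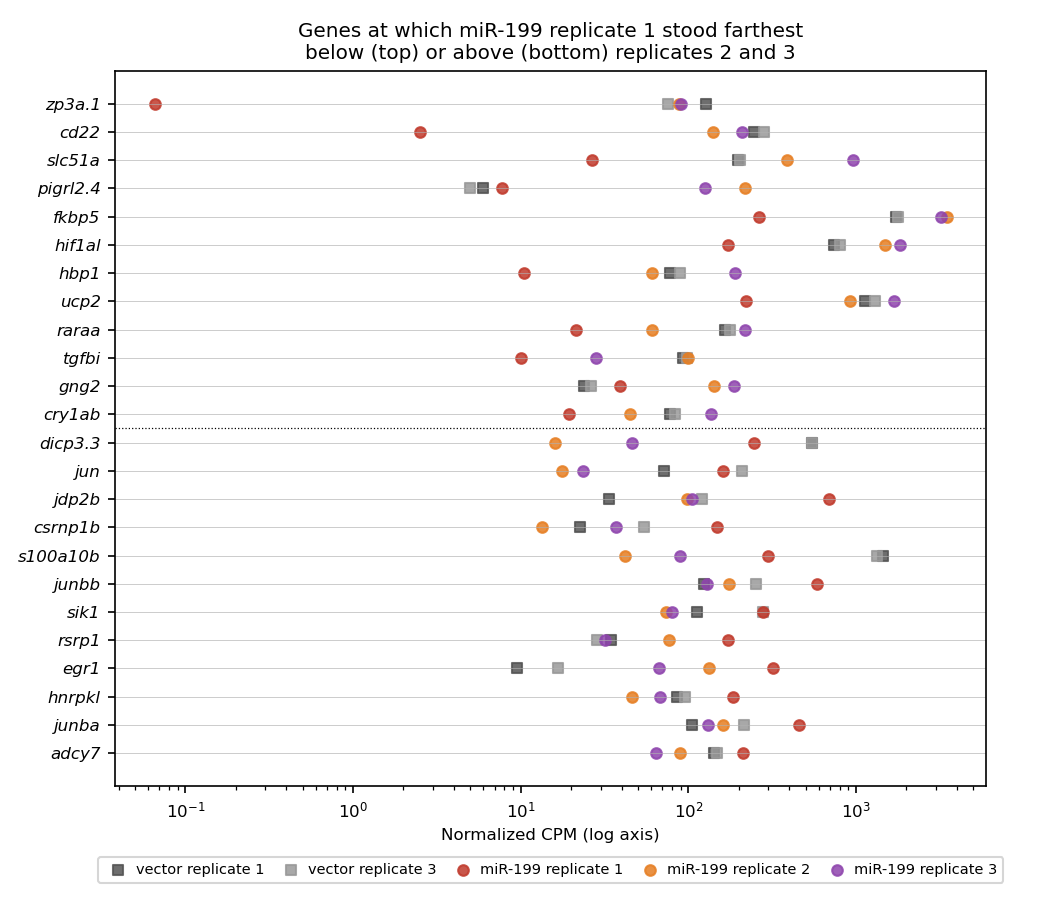
Level in TMM-scaled CPM, on a log axis, of the 12 well-counted genes for which miR-199 replicate 1 (red circles) lay farthest below replicates 2 and 3 and the 12 for which it lay farthest above them, 1 point per library; the genes were picked for this difference. For fkbp5 the red point stands at 265 CPM, left of the vector squares at 1733 and 1772, and for junbb it stands at 583 CPM, right of all other points.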

How the data were processed

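Messenger RNA of sorted neutrophils was measured in 3 miR-199 and 2 vector libraries. The authors deposited raw read counts per gene symbol for each library, with coordinates on GRCz11, per the file headers. The submitters' processing notes name bcl2fastq, STAR 2.5, featureCounts of Subread 1.5.1 and edgeR 3.20.8; how reads with several placements or on either strand were counted is not given in the sources used here. An antisense or overlapping gene can therefore not be told apart from its partner. Counts were filtered with filterByExpr by group, scaled by TMM and tested with the two-sided quasi-likelihood test of edgeR 4.0.16 (R 4.3.3), with groups as the only term. P-values were adjusted by Benjamini-Hochberg over all 8897 genes, and an adjusted p under 0.05 was called. The SE of a log2 change is its size over the root of F. The fit was also run on simulated counts with the same dispersion in both groups, where only the recovery of median fold changes was required. In the data the median SD of log2(CPM+1) was 0.1 in vector and 0.26 in miR-199 libraries. The simulation therefore does not show how well the calls hold here. Alternatives were DESeq2 1.42.0 size factors and test, library totals, other count filters, a replicate block, and each library left out. Levels and lists were handled with Python 3.11.15, pandas 2.3.3 and numpy 2.4.6, and plots with matplotlib 3.10.9.

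The gene lists (46 by function, 11 of cell type markers) and the genes to be described were chosen with earlier results of these data known. Genes were named by rule: the 15 largest rises and 15 largest falls among well-counted calls with a gene symbol, and for each list up to 4 called members of highest level and the most abundant member not called, beside the 10 most abundant genes, cdk2 and the markers. Other genes in the text, such as sublist members, paralogs and list members with the largest changes, were chosen after their values were seen. Selenoprotein genes and itgb1bp1, which name patterns had caught by mistake, were removed after the values were seen. A list of genes encoded in mitochondrial DNA matched 0 genes of the tables. Matches to the miR-199 seed are not analysed here. Library totals limit the precision: 0 counts allow at most 0.176 to 0.243 CPM, taken as 3 counts and covering counting error only. Replicates 1 and 3 carry the same numbers in both groups, but nothing in the labels ties equal numbers to a shared clutch or day. Some results of these lists are not reported here.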

Additional observations from a re-analysis of the deposited data

How the results depend on the processing

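Every one of the 1772 calls that an alternative could fit kept its direction under each alternative, whereas the number of calls did not hold. The alternatives refit the same counts or a part of them, so this agreement in direction is largely built in. DESeq2 called 2673 genes, 1381 higher and 1292 lower, and size factors of the RLE kind gave 1772. Library totals gave 1813 calls, no filter on low counts 1717 and a minimum mean of 10 CPM 1608. With 1 library left out in turn the calls ranged from 0 to 2195, the rises from 0 to 1083 and the falls from 0 to 1112. They numbered 2 and 0 without vector replicates 1 and 3, where the lone vector library is assumed to vary like the miR-199 libraries, and 926 without miR-199 replicate 2 (400 higher and 526 lower); the cause was not tested. Of 236 genes chosen by the naming rule, 182 were called and the others were not. Under the replicate block 152 of these 182 lost their call. The losses were 70 without miR-199 replicate 2, 27 with library totals, 24 without miR-199 replicate 3, 14 with no filter on low counts, 12 without miR-199 replicate 1 and 1 each with RLE and the 10 CPM minimum.

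The replicate block was fitted on the pairs numbered 1 and 3, so miR-199 replicate 2 was dropped. It called 98 genes, 31 higher and 67 lower. Deviations from the group means of libraries with the same number correlated at -0.223 and -0.177, and those with unlike numbers at 0.177 and 0.223. The 2 vector libraries deviate from their mean by equal and opposite amounts, so these values are not independent. They cannot decide whether equal numbers mark pairs.

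Depth limits genes under 1 CPM, of which 3.74% were called, and 2 vector libraries limit every count of calls.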
